A study of Mus musculus with 36 samples.

Results

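Embryonic stem cells (ESC) in which MLL3 and MLL4 have no catalytic activity were compared with wild-type (WT) ESC by mRNA sequencing. All genes that passed a filter on low counts were tested, which left 20511 of the 51734 gene symbols in the count table. The comparison used 6 of the 36 samples of the study, 3 libraries of each genotype. Both genotypes were E14 mouse ESC, grown in DMEM with 15% KnockOut Serum Replacement and leukemia inhibitory factor (LIF). The mutant line is labelled MLL3/4 dCD and is called dCD here. The labels give dTAG-13, a compound that directs a tagged protein to degradation, as a treatment of every library of this set, WT included. The protocol text attached to all of them gives 2 µM from day 1 of differentiation to neural precursor cells (NPC) until harvest on day 4, and states no duration for ESC. Each genotype was measured as a line of its own, so the mutation and other differences between lines cannot be told apart. The labels do not say whether replicates were separate cultures. The p-values then measure only the spread between libraries of a group, estimated from 18 libraries in 6 groups fitted together.

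MLL3 and MLL4, encoded by Kmt2c and Kmt2d, are the large histone methyltransferases that place most monomethylation on histone H3 lysine 4 at enhancers. They work in complexes with shared core subunits and with the H3K27 demethylase encoded by Kdm6a. Besides their catalytic domain the proteins bring other factors to enhancers, so a catalytic mutant separates the methylation from the presence of the protein.

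Total counts were 19.4 to 30.6 M in WT ESC and 23.8 to 27.4 M in dCD ESC, and 23731 to 26038 genes had a count. WT replicate 2 stood apart: its differences from the other WT libraries gave a chi-square per degree of freedom of 8.38 and 10.5, against 2.19 to 3.33 in the other pairs within these groups. The lists whose direction or counts moved most without it (mitochondrial and cytosolic ribosomal proteins, the respiratory chain, H3K4 methyltransferases and the WNT median) are given below with both values, and smaller shifts in the counts of other lists are not. Each of 10 ESC markers was expressed in all 6 libraries, and 2 were called higher and 5 lower in dCD. Their summed level was 4040 to 4561 CPM (a gene's counts scaled to a common library size with TMM factors) in WT and 3862 to 4025 CPM in dCD, against 59.6 to 61.9 CPM in WT NPC. Oct4, encoded by Pou5f1, was at 612, 486 and 568 CPM in WT and 619, 598 and 653 CPM in dCD. Kmt2c was at 181, 219 and 177 CPM in WT and 203, 205 and 189 CPM in dCD, and Kmt2d at 151, 231 and 173 CPM in WT and 204, 190.2 and 190.2 CPM in dCD. Neither was called, and gene counts cannot check for a mutation of the catalytic domain.

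A gene was called when its edgeR quasi-likelihood p, adjusted over all 20511 genes by the Benjamini-Hochberg method, was under 0.05. In all, 48.3% of the genes were called. The level in dCD was higher for 25.7% and lower for 22.6% of genes, and the difference reached 2-fold upward for 5.66% and downward for 3.86%. Shares of gene lists are read against these values, which depend on expression level. Under 1 CPM, 10.9% of genes were called higher and 6.13% lower. At 5 CPM or more, 33.8% were called higher and 31.8% lower. A list of well expressed genes can thus exceed the shares of all genes through its level alone. The lists were not compared with genes of matched level. The 3 dCD libraries all lay above the 3 WT libraries for 27.1% of genes and all below for 24.8%. Large changes sat at the low end of expression. Among 5788 genes under 1 CPM, 598 were higher and 337 lower by at least 2-fold. Among 2834 genes over 100 CPM, those numbers were 2 and 8, although 33.8% of these genes were called higher and 33.5% lower. The median size of a called change was 0.43 on the log2 scale.

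**Figure D1:**
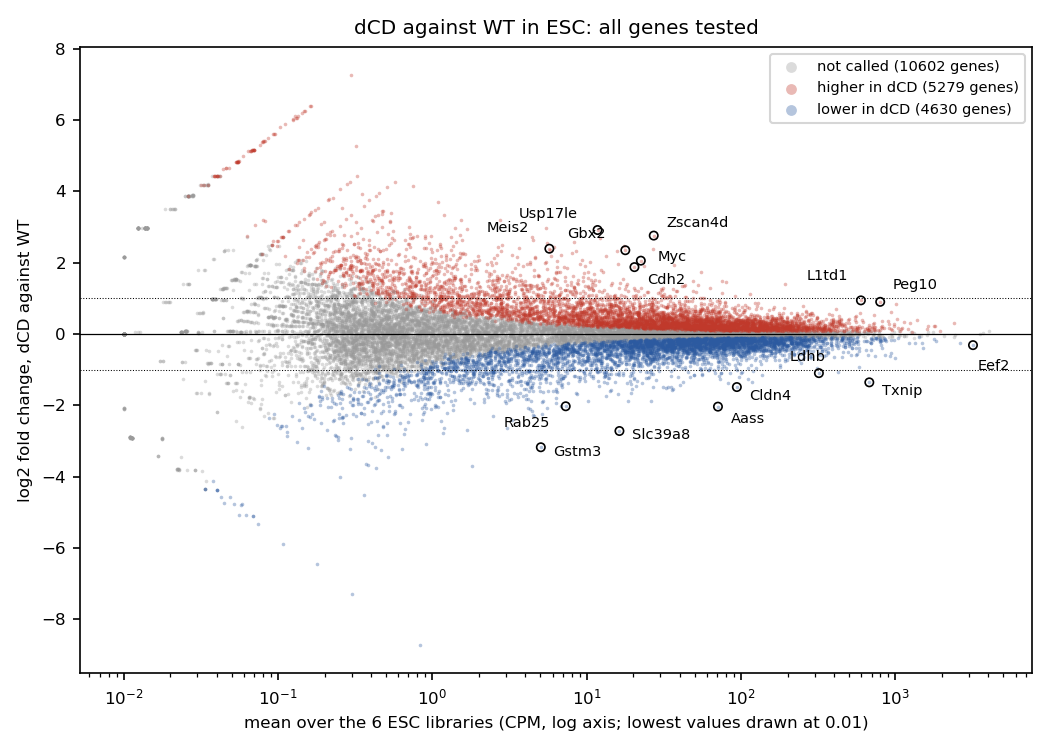
Log2 fold change of dCD against WT ESC (vertical axis) against the mean level over the 6 ESC libraries in CPM (horizontal log axis), 1 point per gene tested, coloured by the edgeR call. Genes called higher (5279) and lower (4630) lie on both sides of 0 at every level, dotted lines mark 2-fold, and Txnip, Aass and Slc39a8 are among the expressed genes with large falls.

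**Figure D2:**
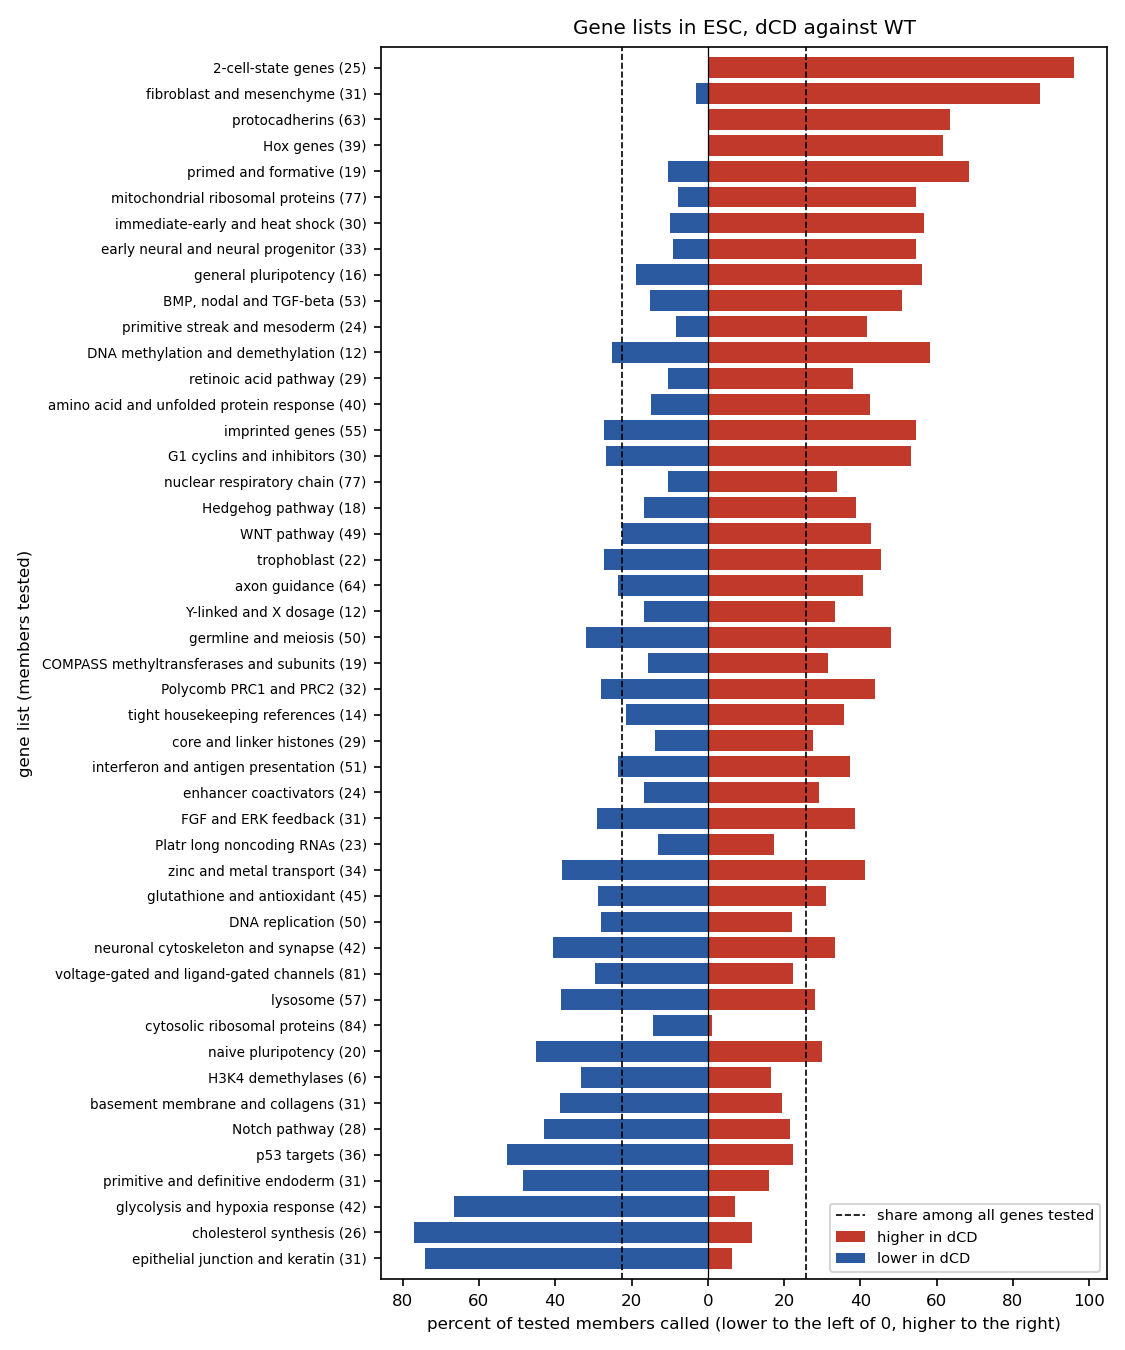
Percent of the tested members of each gene list called higher (right of 0) or lower (left of 0) in dCD ESC, with the number tested beside each name and dashed lines at the shares among all genes tested (25.7% and 22.6%). The dashed lines are not matched to the expression level of a list. The lists of 2-cell-state, mesenchymal, protocadherin and Hox genes stand at the higher end, and those of cholesterol synthesis, epithelial junctions and glycolysis at the lower end.

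Genes of the 2-cell state rose together. These genes are normally switched on in the 2-cell mouse embryo and, in ESC cultures, in a rare and transient fraction of cells, and the transcription factor Dux is known to activate many of them. Of 25 members tested, 24 were higher, all by at least 2-fold, none was lower, and the median log2 change was 2.34, against 0.02 over all genes. Their summed level was 46.7 to 51.0 CPM in the WT libraries and 260 to 261 CPM in the dCD libraries, with no overlap. In bulk RNA, more cells in this state and more RNA per such cell cannot be told apart.

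The Zscan4 genes, zinc finger genes known for their burst of expression in 2-cell embryos, were all higher. Zscan4d (chr7:11161374-11166159 in GRCm38) was at 6.65, 7.10 and 7.14 CPM in WT and 45.1, 48.1 and 49.0 CPM in dCD. Every dCD library was thus far above every WT library. The log2 change was 2.76 (SE 0.11), with an adjusted p of 7.7e-21 by the edgeR quasi-likelihood test. Zscan4a went from 8.45 ± 0.874 to 44.9 ± 1.38 CPM (SD, n = 3 in each group), and Zscan4c from 5.23 ± 0.235 to 26.2 ± 1.25 CPM. The promoters of 4 members carry the same 11-base site in nearly the same surroundings, and they are shown because these genes moved together. Promoter sequences are from RefSeq on GRCm38.p6. The sites lie 80 to 114 bases upstream of the annotated starts. The stretches printed are chr7:10905081-10905191 (minus strand) for Zscan4b, chr7:11005581-11005691 (plus strand) for Zscan4c, chr7:11166213-11166323 (minus strand) for Zscan4d and chr7:11397774-11397884 (plus strand) for Zscan4f. Capitals mark the match.
Zscan4b: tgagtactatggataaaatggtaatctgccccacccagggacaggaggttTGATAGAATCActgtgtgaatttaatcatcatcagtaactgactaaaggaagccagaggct
Zscan4c: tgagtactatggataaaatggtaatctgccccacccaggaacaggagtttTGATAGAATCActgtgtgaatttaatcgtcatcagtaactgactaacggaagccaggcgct
Zscan4d: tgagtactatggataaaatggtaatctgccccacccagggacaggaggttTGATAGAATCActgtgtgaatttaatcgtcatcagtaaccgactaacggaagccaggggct
Zscan4f: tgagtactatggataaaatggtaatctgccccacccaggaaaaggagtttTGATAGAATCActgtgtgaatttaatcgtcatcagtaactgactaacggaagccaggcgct

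The search covered both strands of the 250 bases upstream of the start. The Dux motif was searched as TGATT and AATCA with 1 base of any kind between them, and in a looser form, chosen after seeing the promoters, as TGATT and ATCA with 2 bases of any kind between them. The capitals above are this looser form on the other strand. The looser form was found in 4 of the 14 list members with a promoter entry and in 0.123% of the 12978 promoters of tested genes. The stricter form was found in 0 of 14 and in 0.00771% of all. The letters TATAAA were found in 7 of 14 members, the same 4 Zscan4 genes and 3 Usp17l genes, against 8.5% of all promoters. A match is a description of these letters, and the 4 promoters are near copies of each other. The genes are near copies too, so reads can be split wrongly between them and the summed level of the list is firmer than the value of 1 copy.

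The Usp17l genes encode deubiquitinases of a multicopy family, and all 5 tested members of the list rose. Usp17le was at 2.56, 3.25 and 2.38 CPM in WT and 21.2, 21.7 and 19.4 CPM in dCD. Tmem92, a gene of the same programme outside these families, was at 3.03, 2.45 and 2.79 CPM in WT and 14, 12.1 and 13.8 CPM in dCD. Zfp352, another single gene, rose by 2.20 (SE 0.41) on the log2 scale. Duxf3, a Dux copy, was low throughout, with 21 counts in the 3 WT and 72 in the 3 dCD libraries, and was called higher (1.84, SE 0.56). Pramel7 was not called, with 2 and 4 counts. Gm12794, a gene outside the list, rose from 2.32 ± 0.338 to 14.1 ± 1.18 CPM (log2 change 2.59, SE 0.21). Of the 12 genes with the largest fold rise among those of at least 5 CPM, 5 were Zscan4 genes or pseudogenes and 2 were Usp17l genes.

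**Figure D3:**
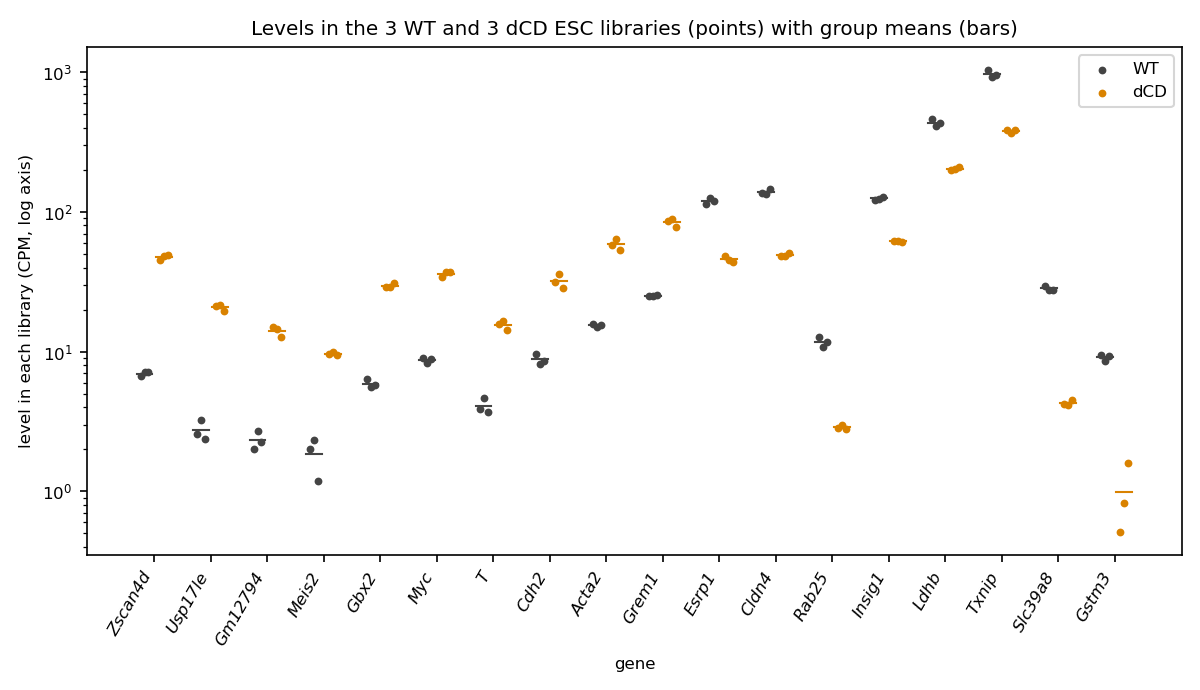
Level in CPM (log axis) of 18 genes in each of the 3 WT (grey) and 3 dCD (orange) ESC libraries, with bars at group means. For each gene shown the 2 groups do not overlap, and the spread within a group is small beside the gap, widest for Gstm3 in dCD and Meis2 in WT.

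Hox genes, which give cells their position along the body axis and are held silent in ESC by Polycomb complexes, rose from very low levels. Of 39 tested, 24 were higher, 20 of them by at least 2-fold, and none was lower (median log2 change 1.15). Members of all 4 clusters were among them. Their summed level was 18.5 to 21.7 CPM in WT and 37.9 to 43.0 CPM in dCD. Over all tested genes with the symbol stems Hoxa, Hoxb, Hoxc and Hoxd, the median log2 changes were 1.21, 0.67, 1.16 and 1.77. In the ESC line labelled MLL2dTAG against WT ESC those medians were 1.36, 0.39, 1.80 and 0.93, so a rise was not particular to dCD. Hoxa10 was at 0.213, 0.663 and 0.646 CPM in WT and 2.90, 2.40 and 2.46 CPM in dCD. Hoxb9 rose less, from 2.69 ± 0.425 to 4.06 ± 0.657 CPM (log2 change 0.58, SE 0.13). Hoxc11 had 0 counts in WT and 10 in dCD, which against a floor of 3 counts over the group is at least 3.52-fold higher, and its call was lost without dCD replicate 2. The call of Hoxa7 was lost without WT replicate 2 or dCD replicate 2.

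Some regulators and cofactors of Hox genes, picked after their values were seen, were also higher. Cdx2 encodes a caudal factor that activates posterior Hox genes and also specifies trophoblast. It had 6 counts in WT and 106 in dCD, with 1.37, 1.41 and 1.49 CPM in the dCD libraries. Its relative Cdx1 rose from 1.81 ± 0.556 to 5.16 ± 0.0527 CPM. Meis1 and Meis2 encode the cofactors that bind DNA beside Hox proteins. Meis2 was at 2.02, 2.32 and 1.19 CPM in WT and 9.56, 9.86 and 9.40 CPM in dCD (log2 change 2.39, SE 0.11, edgeR quasi-likelihood adjusted p 1.5e-18). Meis1 rose from 1.33 ± 0.139 to 4.05 ± 0.220 CPM. Of 29 retinoic acid pathway genes, which include Hoxb1, Cdx1, Meis1 and Meis2, 11 were higher and 3 lower. The enzymes that make retinoic acid, Aldh1a1, Aldh1a2 and Aldh1a3, were not called.

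Protocadherins, the cell surface proteins whose clustered genes give single neurons an identity, behaved likewise. Of 63 tested, 40 were higher and none lower, with a median log2 change of 1.25, or 1.18 with members at 0 counts set to their bound. Their summed level was 63.1 to 75.4 CPM in WT and 132 to 139 CPM in dCD. Of 21 genes of the Pcdhb cluster, 15 were called higher, all by at least 2-fold. The median log2 change of the 21 was 2.34 in dCD and 1.27 in MLL2dTAG ESC, each against WT ESC. For 11 Pcdhga genes these medians were 1.12 and 1.18. For 9 Pcdha genes, of which 1 was called in dCD, they were 1.54 and −2.91. Pcdhb17 had 11 counts in WT and 69 in dCD, and Pcdhb4 had 0 and 17, at least 5.98-fold higher. Pcdhga1 was at 1.70, 1.99 and 2.28 CPM in WT and 4.52, 5.59 and 5.59 CPM in dCD. Genes of the Pcdhga and Pcdhgb clusters share their last exons, so their counts depend on how shared reads were assigned, which is not given in the sources used here. Pcdh18, a gene outside the clusters on chromosome 3, rose from 1.63 ± 0.259 to 6.56 ± 1.4 CPM.

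The clustered protocadherins lie on chromosome 18, whose genes were on the whole higher in dCD. Of 507 tested genes of that chromosome 40% were called higher, against 22.3% to 31.8% on each of the other 18 autosomes and X. The Y chromosome, with 9 genes tested, is outside this range at 44.4%. The median log2 change was 0.187 for chromosome 18, against −0.037 to 0.073 on those autosomes and X and 0.16 on Y. Without the protocadherins 454 genes remained, of which 37.0% were called higher, with a median of 0.130. The same 454 genes had a median of 0.130 in dCD NPC against WT NPC and of 0.0093 in the MLL2dTAG ESC line against WT ESC. The part of this shift in the values of protocadherins, Cdh2, Cdx1 and Spry4, which lie on the same chromosome, was not tested.

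Some genes that mark the start of gastrulation were higher. Of 24 tested primitive streak and mesoderm genes, 10 were higher, 2 lower and 12 not called. Lhx1 and Tbx6 were the 2 that fell (log2 change −0.57 and −0.56), and Gsc and Fgf8 were not called. T, which encodes brachyury, the factor that defines the streak, was at 3.89, 4.64 and 3.70 CPM in WT and 15.7, 16.7 and 14.2 CPM in dCD. The groups did not overlap, and the log2 change was 1.92 (SE 0.19). Mixl1 rose from 0.401 ± 0.130 to 1.69 ± 0.393 CPM and Eomes from 7.76 ± 1.16 to 13.1 ± 0.998 CPM. Mesp1, a later mesoderm gene, did not pass the filter, with 13 counts in WT and 0 in dCD. The summed level of the mesoderm markers was 11.6 to 13.7 CPM in WT and 27.4 to 32.0 CPM in dCD.

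Early neural genes also rose more often than they fell, 18 of 33 higher and 3 lower (median log2 change 0.69). The 3 lower were Pax7, Msi1 and Prom1 (log2 change −1.46, −0.89 and −0.30). Gbx2, a homeobox gene of the hindbrain boundary that is also active in naive ESC, was at 6.34, 5.54 and 5.74 CPM in WT and 29.2, 28.9 and 31.0 CPM in dCD (log2 change 2.35, SE 0.12). Sox1, the earliest marker of neural commitment, rose from 3.05 ± 0.460 to 9.15 ± 0.325 CPM. Pax3 had 4 counts in WT and 63 in dCD, and En1 had 34 and 148. Vim, an intermediate filament gene shared with mesenchyme, rose from 314 ± 7.85 to 507 ± 7.40 CPM. Neurog2 was at 0 in every WT library and had 2 counts in dCD, and Hes5 was not called. The summed level of 7 neural progenitor markers was 65.0 to 73.3 CPM in WT and 78.3 to 86.4 CPM in dCD. Nes, a filament gene of neural progenitors that made up much of this sum, was at 63.6 ± 3.48 CPM in WT and 67.7 ± 4.71 CPM in dCD and was not called. Of 42 neuronal cytoskeleton and synapse genes 14 were higher and 17 lower, and of 81 channel genes 18 and 24. Elavl3, a neuronal RNA-binding protein gene, fell from 34.9 ± 1.62 to 14.9 ± 0.745 CPM.

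Genes of mesenchyme and fibroblasts rose and genes of epithelial junctions fell. Of 31 mesenchymal genes 27 were higher and 1, Fn1, was lower (median log2 change 0.58). Of 31 epithelial genes 2 were higher and 23 lower (median −0.49), 10 of them by at least 2-fold. Krt8, a keratin gene, was among those higher, with a log2 change of 0.22, and its call was lost without WT replicate 2, with a log2 change of 0.13, or without dCD replicate 2. ESC are epithelial cells held together by E-cadherin, and loss of junction genes with gain of N-cadherin is the textbook pattern of epithelial to mesenchymal transition. Cdh2, the N-cadherin gene, was at 9.69, 8.19 and 8.50 CPM in WT and 31.4, 36.0 and 28.5 CPM in dCD. Cdh1, the E-cadherin gene, was at 595, 595 and 587 CPM in WT and 454, 443 and 458 CPM in dCD. N-cadherin mRNA was thus higher and E-cadherin mRNA lower in every dCD library.

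Among the mesenchymal genes, Acta2, which encodes smooth muscle actin, was at 15.7, 15.1 and 15.6 CPM in WT and 57.6, 64.5 and 53.4 CPM in dCD. The log2 change was 1.92 (SE 0.06). Prrx1, a mesenchymal homeobox gene, rose from 17.8 ± 1.19 to 44.2 ± 3.52 CPM, Timp3, a protease inhibitor of the matrix, from 25.5 ± 0.160 to 71.8 ± 4.89 CPM, and Ccl2, a chemokine gene, from 1.86 ± 0.513 to 9.64 ± 2.43 CPM. The collagen genes Col1a1 and Col3a1 changed less, by 0.50 (SE 0.07) and 0.88 (SE 0.05) on the log2 scale, from 194 ± 29.7 and 54.9 ± 5.54 CPM. Snai2 and Twist1, transcription factors of the transition, were higher by 0.45 and 0.99. Of 8 fibroblast or feeder markers 7 were higher, and their summed level was 494 to 615 CPM in WT and 782 to 876 CPM in dCD. The summed level of the whole mesenchymal list overlapped, at 4213 to 4972 CPM in WT and 4476 to 4989 CPM in dCD. These fibroblast markers were well above 0 in WT ESC as well, and none was at 0 in any library. The labels name no feeder cells, and the part of a fibroblast admixture in these changes was not tested.

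The epithelial genes that fell most encode parts of the tight junction and its regulators. Cldn4, a claudin that seals the junction, was at 137, 134 and 145 CPM in WT and 48.7, 48.5 and 50.7 CPM in dCD (log2 change −1.49, SE 0.04, edgeR quasi-likelihood adjusted p 5.8e-24). The 5 claudins on the list, Cldn3, Cldn4, Cldn6, Cldn7 and Cldn9, fell by 1.11 to 1.54. Rab25, a GTPase of epithelial membrane recycling, was at 12.8, 10.8 and 11.6 CPM in WT and 2.82, 2.98 and 2.80 CPM in dCD, a 4.08-fold fall. Tjp3, a junction scaffold, fell from 49.8 ± 0.924 to 17.5 ± 1.88 CPM, and Esrp1, the splicing factor that sets epithelial isoforms, from 119 ± 6.01 to 45.8 ± 2.09 CPM. Krt18 and Tjp1 were not called. The summed level of the list was 2758 to 2768 CPM in WT and 2022 to 2051 CPM in dCD.

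The E-box CAGGTG, read on both strands, was found in the 250 bases upstream of 11 of the 18 epithelial genes with a promoter entry, against 19.6% of all 12978 promoters. It was found in 9 of the 14 that fell, in 1 of 3 that were not called and in the 1 that rose. The promoters of Cldn4 (chr5:134946935-134946998, minus strand) and Rab25 (chr3:88548280-88548393, minus strand) are shown as 2 that fell, with the E-boxes in capitals.
Cldn4: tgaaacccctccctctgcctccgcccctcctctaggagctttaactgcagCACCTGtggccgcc
Rab25: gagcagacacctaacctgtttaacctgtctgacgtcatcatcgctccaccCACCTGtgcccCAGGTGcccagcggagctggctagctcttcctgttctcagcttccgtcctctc

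**Figure D4:**
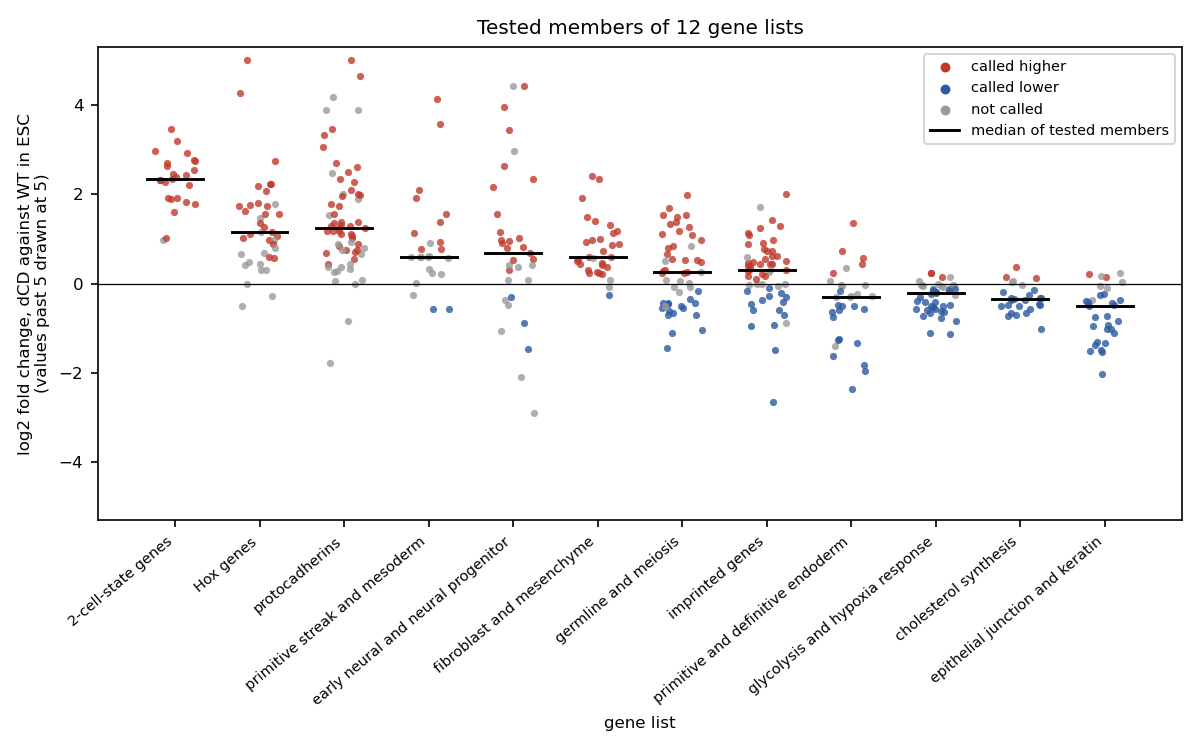
Log2 fold change of dCD against WT ESC for the tested members of 12 gene lists, 1 point per gene coloured by the edgeR call, with a bar at the list's median; values past 5 are drawn at 5. All but 1 of the 25 genes of the 2-cell state were called higher, while germline and imprinted genes were called in both directions.

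Of the core pluripotency factors, Sox2 fell, while Oct4 and Nanog stayed within a small range. Nanog was at 515, 469 and 476 CPM in WT and 489, 498 and 503 CPM in dCD and was not called (log2 change 0.03, SE 0.04). Pou5f1 was called higher by 0.17 (SE 0.05), a call lost without WT replicate 2 or dCD replicate 3. Sox2, their partner factor, went from 319, 292 and 322 CPM to 201, 186 and 213 CPM (−0.63, SE 0.05). Of 20 naive pluripotency genes 6 were higher and 9 lower. Fgf4, a target of Sox2 and Oct4, fell from 311 ± 1.28 to 189.6 ± 7.96 CPM, Dppa3, a maternal-effect gene of naive cells, fell from 17.0 ± 3.14 to 6.71 ± 0.762 CPM, and Tbx3 rose from 53.3 ± 2.82 to 82.4 ± 1.00 CPM. Klf2 and Tfcp2l1 were not called.

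Genes of the primed and formative states were higher more often, 13 of 19 against 2 lower, with a median log2 change of 0.37. Pou3f1, a neural and epiblast factor, rose from 9.13 ± 1.11 to 19.3 ± 2.35 CPM, and Dnmt3a, a de novo DNA methyltransferase, from 191 ± 4.16 to 268 ± 3.24 CPM. Fgf5, the classical marker of the primed epiblast, rose by 0.35 (SE 0.11) from 6.82 ± 0.798 CPM, and Otx2 was not called. Of 16 general pluripotency genes 9 were higher and 3 lower, the latter being Sox2, Dppa5a and Tdgf1. Dppa5a was at 748, 592 and 677 CPM in WT and 476, 472 and 510 CPM in dCD, and Tdgf1 fell by 0.18. L1td1, an RNA-binding protein gene of this list, was at 411, 412 and 404 CPM in WT and 779, 776 and 803 CPM in dCD. Dppa2, known to activate genes of the 2-cell state, rose from 32.3 ± 2.48 to 65.2 ± 4.30 CPM, and its partner Dppa4 was not called.

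Endoderm genes went the other way, with 5 of 31 higher and 15 lower. Hnf4a, a factor of visceral endoderm, was at 5.91, 6.80 and 6.29 CPM in WT and 1.84, 1.99 and 2.39 CPM in dCD. Cubn, the endocytic receptor of visceral endoderm, fell from 60.2 ± 3.65 to 23.9 ± 2.04 CPM, and Gata4 by 0.59 on the log2 scale. Gata6, Sox17 and Sox7 were not called. The summed level of 6 endoderm markers was 15.6 to 17.7 CPM in WT and 11.9 to 12.7 CPM in dCD, and the part of a change in the number of such cells was not tested. Trophoblast genes had no single direction, 10 of 22 higher and 6 lower: Cdx2 and Gata3 rose while Krt7 and Tead4 fell, and Elf5 had 4 and 2 counts.

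Genes of cholesterol synthesis and of glycolysis fell. Of 26 genes of cholesterol synthesis and its control, 20 were lower and 3 higher, with a median log2 change of −0.35 and a summed level of 2544 to 2586 CPM in WT and 1914 to 1973 CPM in dCD. The pathway is switched on by the factor SREBP2, encoded by Srebf2, when sterols are scarce. Insig1, the sterol-sensing brake on SREBP, fell most, from 125 ± 3.18 CPM in WT to 62.2, 62.2 and 60.6 CPM in the dCD libraries, with no overlap. The log2 change was −1.02 (SE 0.04). Srebf2 itself fell by 0.48. Ebp and Acat2 rose, by 0.37 and 0.12.

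A CCAAT box, a site of the factor NF-Y that works beside SREBP, was found upstream of 17 of the 18 cholesterol genes with a promoter entry, against 39.8% of all promoters, in all 13 of those that fell, in all 3 that were not called and in 1 of 2 that rose. The letters TCACNCCAC, a sterol regulatory element, were found in 1 of the 18, Hmgcs1, against 1.29% of all. The Hmgcs1 promoter, chr13:119690101-119690350 on the plus strand, is shown because it holds both, in capitals, with each CCAAT box read on the other strand as ATTGG. The gene itself fell from 299 ± 5.97 to 241 ± 5.17 CPM.
Hmgcs1: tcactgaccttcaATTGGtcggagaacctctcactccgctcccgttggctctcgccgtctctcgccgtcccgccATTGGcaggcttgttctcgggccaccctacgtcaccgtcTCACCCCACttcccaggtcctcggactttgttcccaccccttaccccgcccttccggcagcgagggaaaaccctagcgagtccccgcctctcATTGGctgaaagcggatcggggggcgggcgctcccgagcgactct

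Of 42 genes of glycolysis and the hypoxia response, 28 were lower and 3 higher, with a median log2 change of −0.22. Ldhb, a lactate dehydrogenase subunit, was at 464, 409.8 and 432 CPM in WT and 199, 202 and 209 CPM in dCD, and Aldoc, an aldolase, fell from 76.6 ± 4.90 to 35.2 ± 0.528 CPM. Pfkp, a phosphofructokinase among the most abundant genes that fell, went from 1108 ± 56.9 to 723 ± 17.7 CPM. The hypoxia-responsive genes Ndrg1, Bnip3 and Vegfa fell by 0.85, 0.66 and 0.29, while Hif1a rose by 0.15. The glucose transporter gene Slc2a1, Hk2 and Ldha were not called. Outside the list, Txnip, an inhibitor of glucose uptake that is induced by glucose, had the largest fall in CPM after that of Eef2. It was at 1036, 925 and 963 CPM in WT and 386, 369.8 and 384 CPM in dCD (log2 change −1.36, SE 0.04). The core hypoxia motif ACGTG was found upstream of 20 of 38 members, against 23.5% of all promoters, in 13 of 25 that fell and 6 of 11 that were not called.

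In the FGF and ERK list 12 of 31 genes were higher and 9 lower. Among its feedback inhibitors, Spry2, Spry4, Spred1, Spred2 and Dusp6 rose, Spry1 fell by 0.31, and Dusp4 and Dusp5 were not called. Dusp6, an ERK phosphatase, was at 29.8, 28.2 and 29.9 CPM in WT and 74.6, 74.9 and 77.8 CPM in dCD, and Spry2 rose from 58.9 ± 1.30 to 123.3 ± 2.49 CPM. Spry4 rose by 1.48 (SE 0.05) on the log2 scale. The receptor gene Fgfr4 fell by 1.39. Etv4, a transcription factor downstream of FGF, rose from 57.0 ± 3.29 to 98.8 ± 2.41 CPM. In a separate list of immediate-early and heat shock genes, 17 of 30 were higher and 3 lower, and the part of FGF signals in this was not tested. Egr1 rose from 16.3 ± 1.51 to 28.2 ± 0.676 CPM and Fosb from 0.765 ± 0.0860 to 3.21 ± 0.404 CPM.

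In the BMP, nodal and TGF-beta list 27 of 53 genes were higher and 8 lower. Grem1, a secreted BMP antagonist, was at 25, 25.1 and 25.4 CPM in WT and 85.5, 89.1 and 77.8 CPM in dCD. Id1 and Id3, direct targets of BMP signalling that keep ESC from differentiating, rose from 8.01 ± 1.37 to 20.8 ± 0.970 CPM and from 7.92 ± 1.34 to 21.4 ± 1.86 CPM. The ligand gene Bmp4 rose by 0.93 (SE 0.06) and the receptor gene Tgfbr2 by 1.5 (SE 0.10), while the ligand gene Bmp7 fell by 0.98 (SE 0.07). Ligands, receptors, antagonists and targets of these pathways were among the genes that rose. The 8 lower genes were Bmp7, Lefty1, Tdgf1, Smad1, Skil and the receptor genes Acvr1, Acvr1b and Acvr2b. These receptor genes fell by 0.22, 0.26 and 0.44.

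WNT genes were higher in 21 of 49 cases and lower in 11, with a median log2 change of 0.40, or 0.20 without WT replicate 2. Wnt5a, a non-canonical ligand gene, rose from 5.18 ± 0.657 to 11.9 ± 0.0831 CPM, and Sp5, a direct target of beta-catenin, had 24 counts in WT and 122 in dCD. Axin2, another direct target, rose by 0.40 (SE 0.07), and Rnf43, a target that removes the receptor, fell by 1.01 (SE 0.13). Notch genes fell more often than they rose, 12 against 6 of 28 tested. The ligand gene Dll1 was at 30.8, 29.4 and 31.6 CPM in WT and 12.8, 10.3 and 10.6 CPM in dCD. The receptor gene Notch1 fell from 91.8 ± 9.39 to 49.2 ± 2.10 CPM and the target Hey1 from 9.30 ± 1.33 to 3.92 ± 0.937 CPM. The coactivator genes Maml1, Maml2 and Maml3 rose, and the target Hes1 was not called.

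Myc, the growth-promoting factor of ESC, was at 9.05, 8.23 and 8.87 CPM in WT and 34.4, 36.9 and 36.9 CPM in dCD, a 4.16-fold rise with an adjusted p of 3.9e-22 by the edgeR quasi-likelihood test. Ccnd2, a cyclin of the G1 phase that ESC hold low, rose from 42.3 ± 5.41 to 118 ± 8.92 CPM. Among inhibitors of cyclin-dependent kinases, Cdkn2a rose from 6.03 ± 0.918 to 13.6 ± 1.28 CPM and Cdkn2b from 4.99 ± 0.680 to 14 ± 0.283 CPM, while Cdkn1b and Cdkn1c fell by 0.58 and 0.59. In the list of G1 cyclins and inhibitors that holds these genes and Myc, 16 of 30 were higher and 8 lower. DNA replication genes had no direction, 11 of 50 higher and 14 lower. Of 36 targets of p53, 19 were lower and 8 higher. Gadd45b, a stress gene, fell from 28.3 ± 2.58 to 11.9 ± 1.48 CPM, while Cdkn1a and Mdm2, the best known targets, were not called.

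Genes of chromatin regulation showed mostly modest changes. In the family of H3K4 methyltransferases and their subunits 6 of 19 were higher and 3 lower, or 10 and 2 without WT replicate 2. Setd1b, the catalytic subunit of another H3K4 methyltransferase complex, was the only one past 2-fold in the full set, at 16.1, 19.3 and 17.5 CPM in WT and 45.4, 39.9 and 43.0 CPM in dCD. Men1 and Ncoa6, subunits of MLL complexes, rose by 0.43 and 0.29, and Kdm6a fell by 0.13, a call lost without WT replicate 2 or dCD replicate 2. Among 32 Polycomb genes, which silence the Hox clusters, 14 were higher and 9 lower. With offsets for GC content and length those counts were 11 and 11. The part of Polycomb genes in the rise of Hox genes was not tested. Cbx8, Bmi1 and Epop rose, by 0.84, 0.73 and 0.72. Ezh1, the second H3K27 methyltransferase, fell from 136 ± 11 to 58.7 ± 0.907 CPM, and Phf19, which guides the complex to chromatin, from 21.1 ± 1.32 to 9.71 ± 0.745 CPM. The core gene Suz12 fell from 416 ± 14.6 to 298 ± 6.34 CPM and Ezh2 from 283 ± 3.93 to 243 ± 6.41 CPM, while Eed rose by 0.40. In DNA methylation 7 of 12 genes were higher and 3 lower, led by Tet3, which oxidises methylcytosine and rose from 17.5 ± 1.03 to 30.7 ± 1.47 CPM. Dnmt1, the maintenance enzyme, fell by 0.19 (SE 0.03).

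Imprinted genes, which are expressed from 1 parental copy, rose in 30 and fell in 15 of 55 cases. Peg10, a retrotransposon-derived gene, was at 519, 601 and 547 CPM in WT and 1061, 1059 and 994 CPM in dCD, the third largest rise in CPM of all genes, after Gm11410 and Ncl. Plagl1, a zinc finger factor that controls other imprinted genes, rose from 13 ± 0.830 to 31.7 ± 1.85 CPM, and Dlk1 and Magel2 by 1.42 and 2.01 on the log2 scale. H19 and Igf2, which share a control region but are expressed from opposite parental copies, both rose, by 0.45 and 0.39. In the other direction, Calcr, in the same imprinted region of chromosome 6 as Peg10, was at 5.22, 4.45 and 6.02 CPM in WT and 0.598, 0.746 and 1.12 CPM in dCD, and Grb10 fell from 99.5 ± 4.16 to 51.8 ± 3.50 CPM.

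Germline and meiosis genes changed in both directions, 24 of 50 higher and 16 lower. The X-linked homeobox genes Rhox5, Rhox6, Rhox9 and Rhox13 rose, Rhox5 from 37.2 ± 3.12 to 89.4 ± 5.55 CPM. Among genes of meiotic chromosomes, the cohesin subunit gene Smc1b fell from 58.5 ± 3.84 to 21.6 ± 1.69 CPM and the recombinase gene Dmc1 from 23.5 ± 1.06 to 11 ± 0.866 CPM, while Stra8, the inducer of meiosis, rose from 4.21 ± 0.471 to 9.0 ± 0.612 CPM. The E-box CACGTG, known for silencing of germline genes in ESC, was found upstream of 16 of 42 members, against 9.23% of all promoters. It was found in 6 of 21 that rose, 6 of 13 that fell and 4 of 8 that were not called. The promoters of Slc25a31 (chr3:40708728-40708833, plus strand; log2 change 1.39) and Mael (chr1:166238912-166238994, minus strand; −0.62) are shown as a gene of each direction with the same E-box, in capitals.
Slc25a31: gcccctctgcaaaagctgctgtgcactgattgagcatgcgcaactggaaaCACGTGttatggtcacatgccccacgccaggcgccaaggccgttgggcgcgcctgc
Mael: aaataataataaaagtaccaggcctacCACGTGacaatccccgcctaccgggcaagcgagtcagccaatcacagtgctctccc

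Some housekeeping complexes moved by small and uniform steps. All 9 genes of the COP9 signalosome named Cops rose, with a median log2 change of 0.33, as did 7 of 8 Psma genes of the proteasome core (0.26), 8 of 9 Exosc genes of the RNA exosome (0.16) and 7 of 8 Rrp genes of ribosomal RNA processing (0.22). These stems had the highest shares of higher genes among 311 stems with at least 8 tested genes, together with Pcdhga. The highest shares of lower genes were in Plekha (6 of 8), Spag (6 of 8), Dennd (10 of 14), Epb (6 of 9) and Mapk (11 of 18). Genes of mitochondrial ribosomal proteins were higher in 42 of 77 cases and lower in 6, or 31 and 9 without WT replicate 2. Nuclear genes of the respiratory chain were higher in 26 of 77 and lower in 8, but 17 and 17 without that library. Cytosolic ribosomal protein genes were called lower in 12 of 84 cases and higher in 1, or 52 and 1 without it. The higher share of the respiratory chain list thus depended on 1 WT library. It also narrowed to 21 higher and 16 lower with offsets for GC content and length. With all libraries, 14.3% of the cytosolic ribosomal list was called lower, which is under the 22.6% of all genes. A fall of that list was thus not seen in the full set. It was seen without WT replicate 2 and with those offsets, where 44 were lower and 4 higher. List members were not counted under the other alternatives. Among the most abundant genes, Eef2, a translation elongation factor, fell from 3526 ± 306 to 2836 ± 87.0 CPM and Ncl, which encodes nucleolin, rose from 2159 ± 172 to 2655 ± 13.8 CPM.

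Single genes outside these lists had some of the largest falls. Gstm3, a glutathione transferase, was at 9.42, 8.53 and 9.35 CPM in WT and 0.512, 0.828 and 1.60 CPM in dCD. Aass, the first enzyme of lysine breakdown, was at 117, 109 and 115 CPM in WT and 28.1, 23.8 and 31.0 CPM in dCD, a 4.11-fold fall at a high level. Slc39a8, a zinc and manganese importer, fell 6.60-fold, Zmynd10, a factor of cilia motor assembly, 4.76-fold, and Vwf, the clotting factor, 3.70-fold. Kcnj3, a potassium channel, fell from 15.9 ± 1.53 to 4.38 ± 0.498 CPM, and Cds1, an enzyme of phospholipid synthesis, from 40.8 ± 1.76 to 11.1 ± 0.342 CPM. Over the lists that hold Gstm3 and Slc39a8, glutathione and antioxidant genes were higher in 14 and lower in 13 of 45, and metal transport genes in 14 and 13 of 34.

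More runs of neighbouring genes rose than fell. Among 15547 protein-coding genes in genome order, 26 runs of at least 3 neighbours were higher by at least 2-fold and 4 were lower, with 868 genes higher and 537 lower at that size. All 8 runs of at least 5 were of higher genes. The longest, of 8 genes, was the Zscan4 cluster (chr7:10900740-11614112), with log2 changes of 2.05 to 2.76. The next were the genes from D13Ertd608e to Tcstv3 (chr13:119836006-120318178), with 7 genes including Tcstv1, AF067061 and Tcstv3, Pcdhb16 to Pcdhb22, 6 genes from Gm8300 to Gm2016 (chr12:87514316-87877859) and the end of the Hoxa cluster from Hoxa7 to Evx1 (chr6:52214491-52318378). Most of these runs are families of similar copies, and no test against chance was made. The Hoxa run ends in Evx1, a homeobox gene beside Hoxa13, which had 4 counts in WT and 49 in dCD.

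The same genotypes were compared after 4 days of differentiation to NPC, where 26.7% of genes were called higher and 26.8% lower in dCD. The change in NPC minus the change in ESC was called for 42.9% of genes, more negative in NPC for 22.9% and more positive for 20%. Of the 25 genes of the 2-cell state 5 were higher in NPC and none lower, and the difference between stages was called for 11, all with a smaller rise in NPC. Zscan4d rose by 2.76 (SE 0.11) in ESC and 1.30 (SE 0.25) in NPC, where its mean was 0.537 CPM in WT and 1.35 CPM in dCD. For Hox genes 24 were higher in ESC and 28 in NPC, where 5 were lower, and the difference was more negative in NPC for 13 and more positive for 7. For protocadherins 40 and 36 were higher, with a median log2 change of 1.25 in ESC and 0.56 in NPC, and the difference was more negative for 23 and more positive for 6. Mesenchymal genes were higher in 27 and 21 of 31 cases, and Acta2 rose more in NPC, by 3.74 against 1.92 (SE 0.06), with a called difference.

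Targets of p53 were higher in 26 and lower in 6 of 36 cases in NPC, against 8 and 19 in ESC, and the difference was positive for 28. Lysosome genes were higher in 37 and lower in 7 of 57 in NPC, against 16 and 22. Cholesterol genes were higher in 9 and lower in 12 in NPC, and the difference was positive for 19 of 26. Sox2 fell in ESC and rose by 0.98 in NPC (difference 1.61, edgeR quasi-likelihood adjusted p 4.8e-18). Peg10 rose by 0.90 in ESC and fell by 0.79 in NPC, and L1td1 rose by 0.94 and fell by 0.61. Glycolysis genes were lower at both stages, 28 and 33 of 42, with a median log2 change of −0.22 in ESC and −0.43 in NPC. The difference was more negative in NPC for 23 of them and more positive for 8. Txnip, outside that list, fell by 1.36 and 1.35 (difference 0.01). The 2 stages share the lines and differ in cell type, in the medium and in retinoic acid. Exposure to dTAG-13 may differ too, as no duration is stated for ESC.

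**Figure D5:**
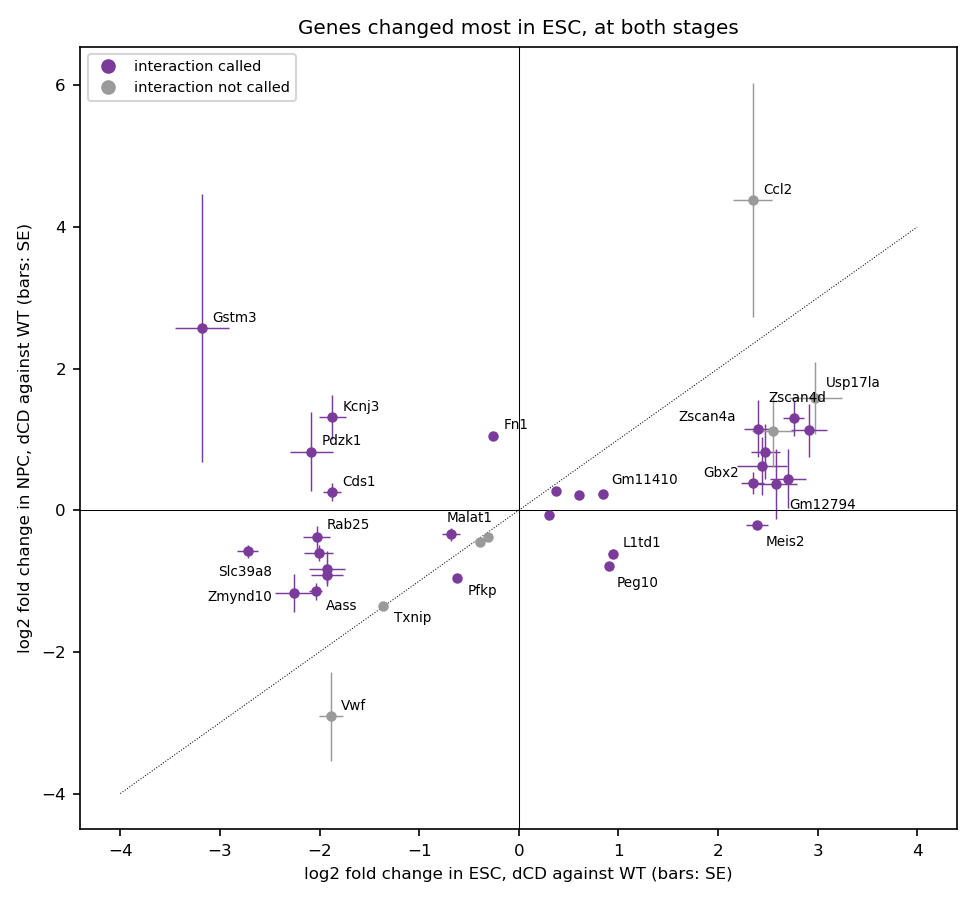
Log2 fold change of dCD against WT in NPC (vertical axis) and in ESC (horizontal axis) for the genes with the largest fold changes or changes in CPM in ESC, with SE as bars and a dotted line where both are equal; purple points have a called difference between stages. Zscan4 genes lie below the line at the right, Txnip lies on it, and Peg10, L1td1 and Meis2 changed in opposite directions.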

How the data were processed

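Raw counts of reads for each gene symbol were deposited by the authors. HTSeq made them, per the submitters' processing notes. The kit was TruSeq Stranded mRNA, per the labels. No aligner, genome build or strand setting for this table was given in the sources used here. Of its columns, 6 had names that match no single sample and were not used, nor were 12 of a first table.

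Counts of 18 libraries in 6 groups of 3 were fitted with edgeR 4.0.16 and limma 3.58.1 in R 4.3.3: filterByExpr by group, TMM factors, and 1 mean per group with the quasi-likelihood F test (two-sided, Benjamini-Hochberg adjustment, 12 residual degrees of freedom, coefficient of variation 4.01%). SE was taken from the fold change and F. A fold against 0 counts uses a floor of 3 counts over the group, covering counting error only. On simulated data with 200 of 20109 genes changed, 90% of changes of 1 log2 unit and 74% of the smaller ones were recovered, with 9 false calls. The simulation changed far fewer genes than were called here, only genes of at least 1 CPM, and held no outlying library. It thus checks the code and does not give the error rate of these calls. Positions are from GENCODE M21 (GRCm38), matched by symbol for 96.0% of genes.

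Named genes were, by rule, targets and markers, the 12 highest and 12 lowest fold changes (mean of at least 5 CPM, no overlap), the 6 largest changes of CPM in each direction, members of fixed lists with 2-fold changes and each list's extremes, families, runs, and the 5 most positive and negative stage differences. Further members of the lists were named after their values were seen, to say what a list holds. The comparison, lists and rule were chosen with earlier results of these data known. Alternatives were other scalings, filters, tests (DESeq2 1.42.0, limma-voom), halved counts, offsets for GC content and length, a replicate block and leaving out each ESC library. Some genes are not reported here.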

Additional observations from a re-analysis of the deposited data

Results flagged for a closer look

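The results below were singled out because the change of dCD against WT differed between NPC and ESC by the test of the difference itself (edgeR quasi-likelihood, Benjamini-Hochberg adjusted). Values are the log2 change in NPC minus that in ESC, and the difference was called for 8807 genes. With 3 libraries a group, no test for a single outlying library was made.

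Genes of the 2-cell programme had a smaller change in NPC: the difference was −1.46 for Zscan4d, −1.25 for Zscan4a, −2.25 for Zscan4e, −1.65 for Zscan4-ps3 and −1.79 for Usp17le. It was −2.21 for Gm12794 and −1.82 for AC153367.1, 2 other genes with large rises in ESC. The homeobox genes Meis2 and Gbx2 differed by −2.60 and −1.96. Peg10 and L1td1 differed by −1.69 and −1.55. Among abundant genes, Gm11410 differed by −0.61, Gm28439 by −0.39, Ncl by −0.36, Pfkp by −0.34 and Eif4g2 by −0.11, while Malat1 differed by 0.34 and Fn1 by 1.31.

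For 11 of the 12 genes with the largest falls in ESC, the change in NPC was more positive. The genes were chosen for extreme values in ESC, which are part of this difference, so a more positive value follows in part from the choice, and the same holds in reverse for the genes above chosen for their rises. The difference was 5.76 for Gstm3, 3.19 for Kcnj3, 2.91 for Pdzk1, 2.15 for Slc39a8, 2.13 for Cds1, 1.65 for Rab25, 1.4 for Rgl3, 1.10 for Bnipl, 1.09 for Zmynd10, 1.01 for Chst1 and 0.90 for Aass.

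At a mean level of 5 CPM or more, the most positive differences were 8.23 for Bmp3, 5.08 for Asic4, 4.92 for Cnn1, 4.62 for Ptgs2 and 4.57 for Tm4sf1. The most negative were −5.75 for Nhlh2, −5.19 for Tcf21, −5.09 for Mir99ahg, −4.70 for Lrrc4c and −4.62 for Tmem255a. Bmp3 and Asic4 had 0 counts in dCD ESC, and Nhlh2, Tcf21 and Mir99ahg had 0 counts in WT ESC, so the size of these 5 differences depends on how the fit treats 0 and only their direction can be read.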

How the results depend on the processing

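The number of genes called in ESC, 9909, ranged from 8829 with the 6 libraries fitted alone to 10021 with DESeq2, and from 9054 to 9605 when 1 ESC library was left out. The stage difference, 8807, ranged from 8296 to 8714 when 1 ESC library was left out. With only genes of a mean of at least 1 CPM, 564 genes were higher and 451 lower by at least 2-fold, against 1160 and 791, because fewer genes of low expression were tested. When 1 ESC library was left out, 1051 to 1133 were higher and 658 to 815 lower by at least 2-fold. Between 87.2% and 99.6% of the calls were shared with each alternative, and the share of called genes that were higher went from 46.7% with offsets for GC content and length to 56.4% with no filter, against 53.3%. For 377 named genes under 17 alternatives, 6177 of 6310 values kept direction and side of the threshold, 104 lost and 29 gained the call, and none reversed. Replicate numbers did not pair the samples (correlations of deviations of −0.02, 0.05 and 0.03), and with a replicate block 9701 genes were called, and 8586 for the stage difference. Low counts were more often even than odd (61.4% to 66.5% of counts of 1 to 10), and halving all counts left 9738 calls. Counts of a few reads limit Hox, protocadherin and neural genes.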

Other observations

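Among genes tested, 3 had 0 counts in one ESC group and at least 40 in the other, a rule chosen after the values were seen. 1700025B11Rik (chr15:77558239-77561892) was at 1.70, 1.79 and 1.46 CPM in WT, 129 counts in all, and had 0 counts in dCD, at least 40.7-fold lower. Its neighbour Apol7c (chr15:77524852-77533316), of the apolipoprotein L family, had 49 counts in WT and 0 in dCD, at least 15.5-fold lower. Both were also at 0 in dCD NPC and in MLL2dTAG ESC, so both engineered ESC lines had no count of them. Gpr83 (chr9:14860210-14870789), a G protein-coupled receptor gene, had 0 counts in WT and 44 in dCD, at least 15.5-fold higher. It was also called higher in MLL2dTAG ESC against WT ESC, at a mean of 0.209 CPM beside 0.597 CPM in dCD.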
